A study of Mus musculus with 6 samples.

Results

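Transcripts of 9 genes of the p53 and apoptosis pathway were followed in mouse retina: Trp53, which encodes p53, its regulator Mdm2, the arrest and repair genes Cdkn1a, Gadd45a, Ccng1 and Btg2, and the cell death genes Bax, Bbc3 and Trp53inp1. They were taken by symbol from the 54532 genes listed, and all 9 were found. All 9 were also among the 17453 genes with a mean of at least 0.5 FPKM, which were tested. FPKM is the number of sequenced fragments scaled to the length of the gene and to the size of the library. The retinas came from pups with oxygen-induced retinopathy (OIR), a model in which high oxygen halts the growth of retinal vessels and the return to room air drives new ones. All pups went into 75% ± 2% oxygen with their mothers on postnatal day 7. On postnatal day 12 the vitreous was injected with 1 nmol of miR-381-3p antagomir in 3 and with 1 nmol of a control antagomir (antagomir nc) in 3, as the treatment protocol counts them. Antagomirs are antisense oligonucleotides, chemically modified, that bind a microRNA and keep it from its targets. The hairpin gene Mir381 had 0, 2 and 1 reads in the antagomir libraries and 0 in each control, which says nothing of the mature microRNA. On postnatal day 17 the retinas were collected, giving 3 libraries per group. The labels do not tie each library to 1 of these animals, so p-values measure only the spread between these libraries. The antagomir columns are named with an X, whose meaning is not given, and all directions rest on their assignment to that group.

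The p53 protein is a transcription factor that is held low by Mdm2, a ubiquitin ligase that is itself a p53 target. DNA damage, hypoxia and other stress release p53 from Mdm2, and it then raises genes that stop the cell cycle, repair DNA or start cell death through Bax and the BH3-only protein PUMA, the product of Bbc3. In the developing retina cell death removes surplus neurons, and in retinopathy models it also removes vessel cells and neurons. Because the samples are bulk tissue, fewer cells of a type and less RNA per cell cannot be told apart.

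The sequences below show the letters searched for in these genes, beginning with the target of the antagomir. The first is the mature microRNA that the antagomir was made against, with its seed (bases 2 to 8) in capitals, from RefSeq on GRCm38.p6 (chr12:109726870-109726891, plus strand).
mmu-miR-381-3p: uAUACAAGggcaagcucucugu
The complement of the seed is CTTGTAT. Taking for each gene the transcript with the most sequence after the stop codon in GENCODE M21, 0 of the 9 genes held it in the 3′ UTR, against 13.3% of 13160 tested genes with a 3′ UTR. The shorter match TTGTAT, which pairs with bases 2 to 7, stood in 5 of the 9, against 43.0% of those genes. The 3 examples shown belong to genes whose groups did not overlap, with TTGTAT in capitals. They start at base 931 of 971 in Bbc3, base 746 of 2199 in Btg2 and base 2885 of 4420 in Trp53inp1.
Bbc3: tgtacatgatttTTGTATgtttccttttca
Btg2: ctctgtgctgctTTGTATgggtggatagtg
Trp53inp1: gacaatttgtatTTGTATggttgcataggt
Trp53inp1 held 6 such matches, Btg2 and Mdm2 held 2 each, and Bbc3 and Ccng1 held 1 each. At base 1319 in Mdm2, base 1946 in Btg2 and bases 1163 and 3548 in Trp53inp1 the match was followed by A. That longer match, TTGTATA, is also a 7-base form and was not counted over all genes. The Trp53inp1 stretch above shows a further copy, at base 2879, in lower case just before the capitals. No match was found in Trp53, Cdkn1a, Gadd45a or Bax, whose 3′ UTRs span 565, 1334, 563 and 224 bases.

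Promoter windows, from 250 bases before to 50 bases after a start in RefSeq (GRCm38.p6), were given for 8 of the 9 genes, all but Trp53inp1. These 8 genes had 11 windows, since a gene can have more than 1 start. The windows were searched for the p53 decamer, the 10-base consensus that p53 dimers bind. The consensus is its own reverse complement, so a single search covers both strands. It was found in at least 1 window of 6 of these 8 genes, against 9.55% of the 27025 genes with a window. The 9 genes were chosen as parts of the p53 pathway, so this is a description of the set. The decamer is in capitals in the stretches that follow, shown to give its place and letters in each gene.
Trp53, chr11:69580274-69580303, plus strand: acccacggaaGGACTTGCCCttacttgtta
Mdm2, chr10:117710925-117710954, minus strand: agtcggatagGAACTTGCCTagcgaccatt
Cdkn1a, chr17:29090896-29090925, plus strand: tcctgggtggGGACTAGCTTtctggccttc
Cdkn1a, chr17:29090918-29090947, plus strand: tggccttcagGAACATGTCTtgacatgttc
Gadd45a, chr6:67037428-67037457, minus strand: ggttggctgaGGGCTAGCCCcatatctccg
Ccng1, chr11:40755452-40755481, minus strand: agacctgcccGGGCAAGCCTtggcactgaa
Bax, chr7:45467080-45467109, minus strand: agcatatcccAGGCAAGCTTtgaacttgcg
Counted from the base before the RefSeq start of the window as -1, the decamers begin at -75 in Trp53, -186 in Mdm2, -73 and -51 in Cdkn1a, -40 in Gadd45a, -185 in Ccng1 and -201 in Bax. By the gene coordinates given below, the Gadd45a decamer lies inside the gene. Cdkn1a had the only member window with a pair of decamers no more than 13 bases apart, an arrangement found in 0.0731% of 32851 windows. These letters were not in the windows of Btg2 and Bbc3.

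None of the 9 genes passed the test between the groups, and nor did any other gene tested. By limma on log2(FPKM + 1), 0 of 17453 genes reached an adjusted p of 0.05 (0.00%), and 1082 had an unadjusted p under 0.05 (6.20%). Of the 9 genes, 6 were higher (50.5% of all genes tested were) and 3 lower in the antagomir group, with a median log2 fold change of 0.13, against a median of 0.0013 over all genes tested. With 1 library left out, 6 or 7 were higher and the median of the 9 lay between 0.097 and 0.15. An unadjusted p under 0.05 was found for 2 of them, Bbc3 and Btg2. The groups did not overlap for 4 of the 9. Bbc3, Btg2 and Trp53 were higher in each antagomir library than in any control library, as were 6.16% of all genes tested. Trp53inp1 was lower in each antagomir library than in any control, as were 5.87% of all genes tested. With 3 against 3 libraries the exact two-sided permutation test cannot go below p = 0.1, and it gave 0.1 for these 4 genes and 0.2 to 0.9 for the other 5. Adjusted p by limma lay between 0.801 and 0.998 over the 9 genes.

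**Figure D1:**
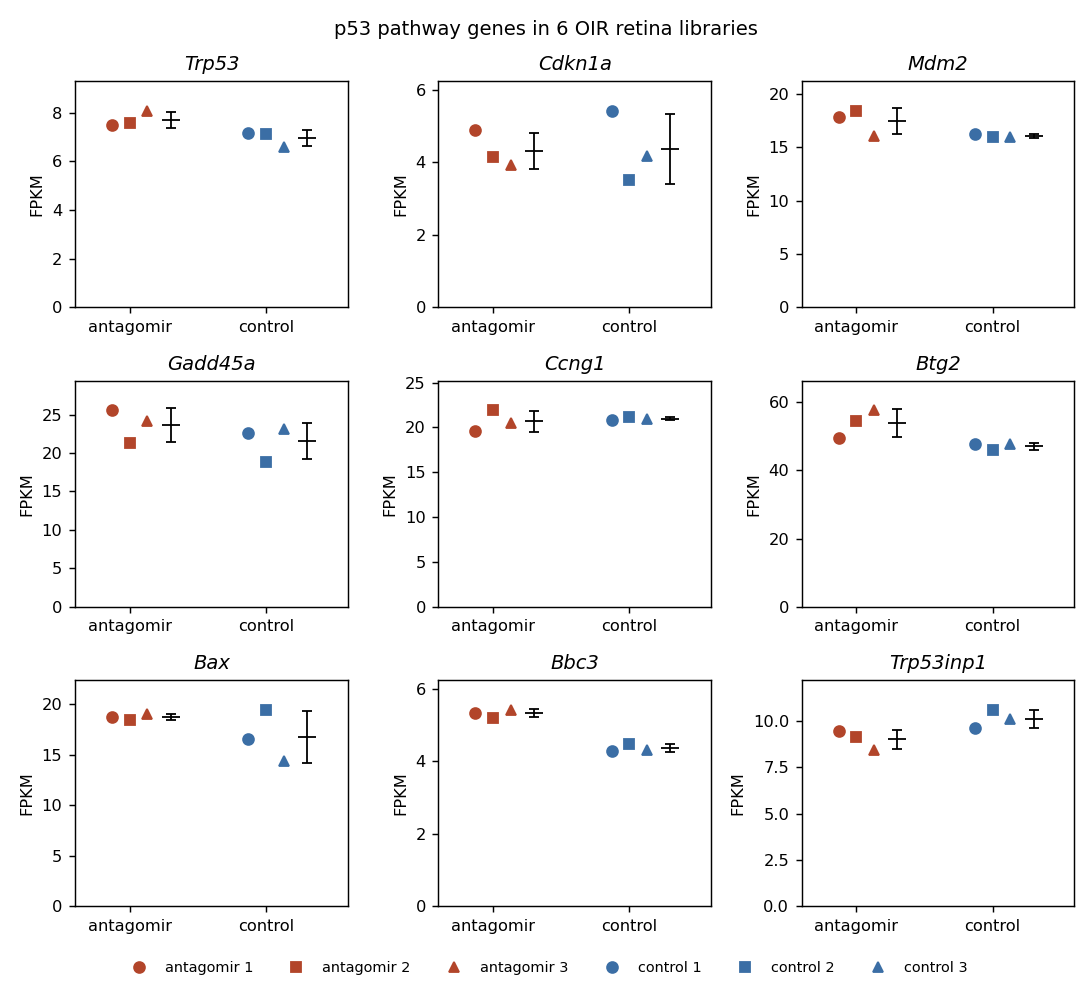
FPKM (vertical axes, from 0) of the 9 genes in each antagomir and control library, with the mean and SD of 3 libraries in black beside the points. The groups stand apart for Bbc3, with antagomir libraries at 5.21 to 5.42 and controls at 4.27 to 4.49 FPKM, and overlap for Cdkn1a, Mdm2, Gadd45a, Ccng1 and Bax.

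**Figure D2:**
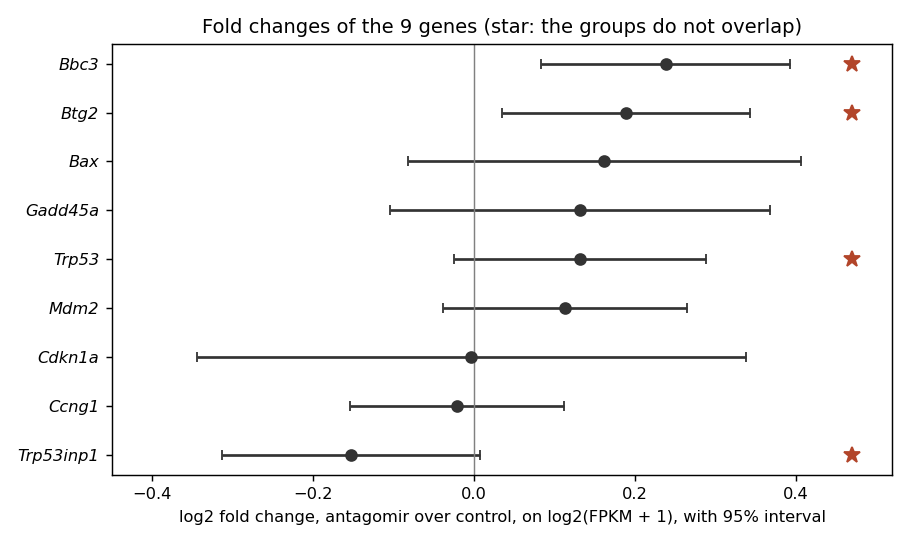
Log2 fold change of each gene, antagomir over control, on the log2(FPKM + 1) scale (horizontal axis), with the 95% interval from limma over 3 against 3 libraries. The intervals of Bbc3 (0.083 to 0.39) and Btg2 (0.034 to 0.34) leave out 0 before adjustment, and a star marks the 4 genes whose groups do not overlap.

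Among the regulators, Trp53 (ENSMUSG00000059552, chromosome 11, 69580359 to 69591873 in GRCm38, plus strand) encodes the transcription factor itself. Antagomir libraries held 7.48, 7.57 and 8.09 FPKM and control libraries 7.18, 7.11 and 6.58 FPKM. All 3 antagomir libraries were above all controls, by 4.22% at the closest pair. The means were 7.71 ± 0.332 and 6.95 ± 0.328 FPKM (SD, n = 3 each). Its log2 fold change was 0.13 (SE 0.066, 95% interval -0.025 to 0.29, adjusted p = 0.805 by limma).

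Mdm2 (ENSMUSG00000020184, chromosome 10, 117688875 to 117710758, minus strand) encodes the ubiquitin ligase that marks p53 for breakdown. It stood at 17.9, 18.5 and 16.1 FPKM in the antagomir libraries and at 16.2, 15.96 and 15.95 FPKM in the controls. Antagomir replicate 3 lay inside the narrow range of the controls, so the groups overlapped. On the log2 scale the change was 0.11 (SE 0.064, adjusted p = 0.82 by limma), 0.17 without antagomir replicate 3 and 0.074 without antagomir replicate 2.

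Cdkn1a (ENSMUSG00000023067, chromosome 17, 29090976 to 29100727, plus strand) encodes p21, the inhibitor of cyclin-dependent kinases through which p53 halts the cell cycle. It was the lowest of the 9 genes, at 4.88, 4.15 and 3.92 FPKM in the antagomir libraries and 5.43, 3.52 and 4.17 FPKM in the controls. The controls held both its highest and its lowest value. The means were 4.32 ± 0.498 and 4.37 ± 0.971 FPKM (SD, n = 3 each), and the log2 fold change was -0.0037 (SE 0.14, adjusted p = 0.998 by limma). The 95% interval, -0.34 to 0.34, is the widest of the 9 genes, and the sign of the estimate turned as TPM, with quantile normalization and by voom. Without control replicate 1 the log2 fold change was 0.13.

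Gadd45a (ENSMUSG00000036390, chromosome 6, 67035096 to 67037457, minus strand) encodes a stress sensor in DNA repair and growth arrest. Its values were 25.6, 21.2 and 24.2 FPKM in the antagomir libraries and 22.6, 18.9 and 23.1 FPKM in the controls, so that antagomir replicate 2 lay below 2 of the 3 controls. The log2 fold change was 0.13 (SE 0.099, adjusted p = 0.862 by limma), and it ranged from 0.044 without control replicate 2 to 0.20 without antagomir replicate 2. Of its exonic bases, 337 (19.1%) are shared with the antisense gene E230016M11Rik, which had 797 to 955 reads in antagomir libraries and 702 to 906 in controls. Whether the counting used strand is not given in the sources used here, so reads of this stretch may belong to either gene. Smaller overlaps, of Cdkn1a with AC167363.2 and of Bax with Gm45808, concern genes with at most 3 reads in any library.

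Ccng1 (ENSMUSG00000020326, chromosome 11, 40748552 to 40755311, minus strand) encodes cyclin G1, a p53 target that recruits a phosphatase to Mdm2. It was at 19.6, 21.9 and 20.5 FPKM in the antagomir libraries and at 20.9, 21.1 and 21.0 FPKM in the controls. The controls lay inside the antagomir range. The log2 fold change of -0.021 had a 95% interval of -0.15 to 0.11 (adjusted p = 0.962 by limma), the narrowest of the 9.

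Btg2 (ENSMUSG00000020423, chromosome 1, 134075170 to 134079120, minus strand) encodes an antiproliferative protein, and is both a p53 target and an immediate early gene, one that is transcribed within minutes of a stimulus. It was the most abundant of the 9, at 49.6, 54.4 and 57.7 FPKM in the antagomir libraries and 47.6, 46.0 and 47.6 FPKM in the controls. All antagomir libraries were above all controls, with antagomir replicate 1 only 4.06% above the nearest control. The means were 53.9 ± 4.08 and 47.1 ± 0.956 FPKM (SD, n = 3 each), with a log2 fold change of 0.19 (SE 0.065, unadjusted p = 0.0234 and adjusted p = 0.801 by limma), and 0.14 to 0.25 with 1 library left out. Of 19 other immediate early genes, such as Fos and Jun, 16 were tested. All 16 were higher in the antagomir group, 6 at an unadjusted p under 0.05 (3.22% of all genes tested were higher at that p). Those 6 were Fos, Ier3, Jun, Fosb, Ier2 and Jund, with log2 fold changes from 0.24 for Ier3 to 1.01 for Fos. The median log2 fold change of the 16 was 0.46, and 0 had an adjusted p under 0.05. Without control replicate 2 the median was 0.25, with 0 genes at an unadjusted p under 0.05. Without antagomir replicate 3 it was 0.29, with 14 of the 16 higher and 1 at that p, and without control replicate 1 it was 0.50, with 15 higher and 4 at that p. All 16 were higher without each of the other 3 libraries, 9 at that p without antagomir replicate 1 and 2 without antagomir replicate 2 or control replicate 3, with medians of 0.31 to 0.62. Antagomir libraries had mean deviations of -0.15, 0.23 and 0.63 on the log2 scale over this list, and control libraries -0.15, -0.45 and -0.10. In both Btg2 and this list antagomir replicate 3 was highest and control replicate 2 lowest. The part of this list in the Btg2 difference was not tested.

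**Figure D3:**
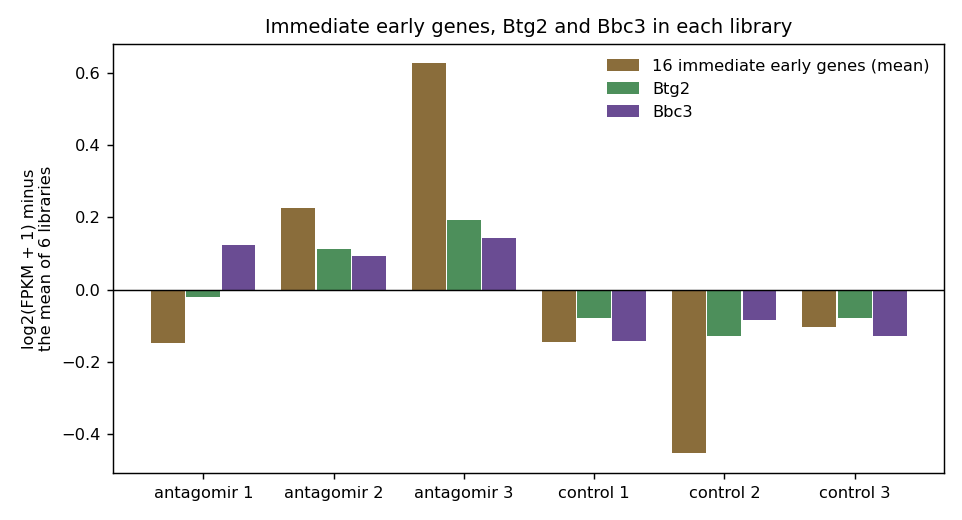
Deviation of log2(FPKM + 1) from the mean of the 6 libraries (vertical axis) for the mean of 16 immediate early genes, for Btg2 and for Bbc3, in each library. The immediate early genes run from -0.15 to 0.63 over the antagomir libraries, while Bbc3 is at 0.092 to 0.14 in all 3 and at -0.14 to -0.084 in the controls.

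Among the cell death genes, Bbc3 (ENSMUSG00000002083, chromosome 7, 16308393 to 16318205, plus strand) had the smallest p of the 9. It encodes PUMA, a BH3-only protein that neutralizes the survival proteins of the Bcl-2 family. Antagomir libraries were at 5.34, 5.21 and 5.42 FPKM and control libraries at 4.27, 4.49 and 4.32 FPKM. The lowest antagomir library was 15.9% above the highest control, the widest gap among the 9 genes. The means were 5.32 ± 0.109 and 4.36 ± 0.115 FPKM (SD, n = 3 each), a ratio of 1.22. The log2 fold change was 0.24 (SE 0.065, unadjusted p = 0.00849 and adjusted p = 0.801 by limma), and it ranked 163 of the 17453 genes by p. These levels rest on 165, 180 and 190 reads in the antagomir libraries and 135, 145 and 127 reads in the controls.

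Bax (ENSMUSG00000003873, chromosome 7, 45461697 to 45466898, minus strand) encodes the protein that opens the outer mitochondrial membrane. It was at 18.8, 18.4 and 19.1 FPKM in the antagomir libraries and at 16.5, 19.5 and 14.4 FPKM in the controls. The antagomir libraries were close together, and the controls spread below and above them. On the log2 scale the Bax change was 0.16 (SE 0.10, adjusted p = 0.84 by limma), and it was 0.27 without control replicate 2 and 0.061 without control replicate 3. The ratio of Bax to the survival gene Bcl2l1, in FPKM and chosen after the values were seen, was 1.31, 1.35 and 1.40 in antagomir libraries and 1.31, 1.33 and 1.04 in control libraries. Of the other ratios computed, that of Bax to Bcl2 was 16.2, 18.0 and 26.7 against 16.1, 21.3 and 12.5 in controls. That of Mdm2 to Mdm4 was 1.26, 1.32 and 1.21 against 1.30, 1.27 and 1.08. That of Bbc3 to Bcl2l1 was 0.374, 0.381 and 0.397 against 0.338, 0.308 and 0.313, without overlap, as for Bbc3 itself.

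Trp53inp1 (ENSMUSG00000028211, chromosome 4, 11156431 to 11174379, plus strand) encodes a nuclear protein that p53 induces and that promotes p53 activity and autophagy. It was the single gene of the 9 with lower values in each antagomir library, at 9.45, 9.15 and 8.44 FPKM, against 9.64, 10.6 and 10.1 FPKM in the controls. The gap at the closest pair was small, with antagomir replicate 1 below control replicate 1 by less than the SD of either group. The means were 9.01 ± 0.521 and 10.1 ± 0.489 FPKM (SD, n = 3 each), with a log2 fold change of -0.15 (SE 0.068, unadjusted p = 0.0589 and adjusted p = 0.802 by limma).

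By mean level over the 6 libraries the genes ran from Btg2 through Gadd45a, Ccng1, Bax, Mdm2, Trp53inp1, Trp53 and Bbc3 to Cdkn1a. Gadd45a and Ccng1 shared values, as did Bax and Mdm2, and Bbc3 and Cdkn1a, so these neighbours do not differ beyond their spread. The other neighbours in this order shared no values over the 6 libraries, Ccng1 and Bax coming closest to it. Against all genes tested the levels lay between the 46.2 and the 95.9 percentile.

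The spread between libraries differed widely among the 9 genes. Cdkn1a varied most, with a coefficient of variation (CV, SD over mean) of 11.5% in antagomir libraries and 22.2% in controls. Counting error alone gives 6.45% and 6.63% for it. Bbc3 varied by 2.05% and 2.64%, below the 7.49% and 8.59% that counting its reads would give. The SD of its 3 libraries is thus smaller than counting error alone in both groups. When each value was weighted by its read depth, with voom on reads rebuilt from FPKM, its log2 fold change was 0.30 (unadjusted p = 0.0414, adjusted p = 0.794). The Bax CV was 1.70% in antagomir libraries, against 15.2% in controls, and Mdm2 had 7.12% against 1.06%.

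**Figure D4:**
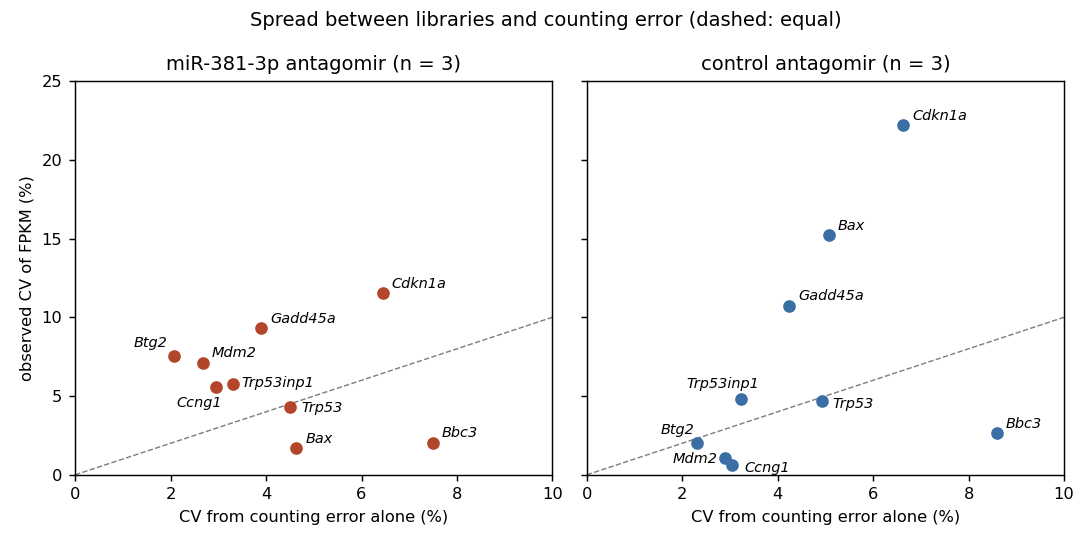
Observed CV of FPKM over 3 libraries (vertical axis, percent) against the CV that counting error alone gives at the mean read count (horizontal axis, percent), for each gene in the antagomir group (left) and the control group (right). Points under the dashed line vary less than counting alone gives, among them Bbc3 in both groups, at 2.05% and 2.64%.

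The wider pathway was followed in lists of 109 further genes, of which 89 were tested, and none passed an adjusted p of 0.05 by limma. Of 23 p53 regulators, 18 were tested, with 8 higher and 10 lower (median log2 fold change -0.0040, and -0.028 to 0.0062 with 1 library left out). An unadjusted p under 0.05 was found for 0 in the higher and 2 in the lower direction (2.98% of all genes tested were lower at that p). Ppp1r13l, which encodes iASPP, an inhibitor of p53, was at 4.52, 4.48 and 4.61 FPKM in the antagomir libraries and 6.32, 5.50 and 6.32 FPKM in the controls. The groups did not overlap (5.87% of all genes tested were lower in this way). The log2 fold change was -0.35 (SE 0.076, unadjusted p = 0.0028 and adjusted p = 0.721 by limma). Hipk2, which encodes a kinase that phosphorylates p53, was at 6.18, 5.77 and 10.3 FPKM, against 10.6, 11.0 and 9.32 FPKM in the controls. Antagomir replicate 3 lay inside the control range, and the Hipk2 log2 fold change of -0.46 was -0.70 without that library and -0.33 without antagomir replicate 2. The ribosomal protein genes Rpl11 and Rpl5, whose products bind Mdm2, were at 67.8 ± 3.17 against 63.7 ± 6.16 FPKM and at 56.7 ± 1.13 against 55.9 ± 5.86 FPKM (antagomir against control, SD, n = 3 each).

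**Figure D5:**
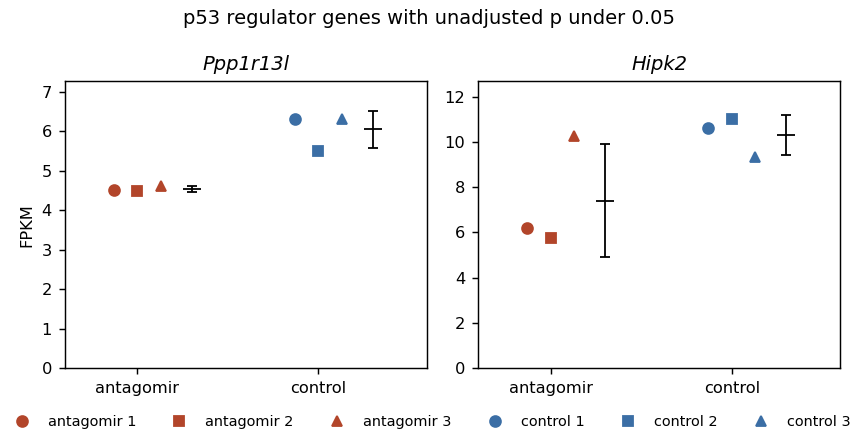
FPKM (vertical axes, from 0) of the 2 p53 regulator genes with an unadjusted p under 0.05, in each antagomir and control library, with mean and SD of 3 libraries. The groups do not overlap for Ppp1r13l, and antagomir replicate 3 lies among the controls for Hipk2, at 10.3 FPKM.

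Of 27 further p53 targets in arrest, repair and metabolism, 26 were tested, with 14 higher and 12 lower (median 0.050, and 0.013 to 0.052 with 1 library left out) and 0 at an unadjusted p under 0.05 in either direction. Sesn1, a stress-induced inhibitor of mTOR signalling, averaged 26.3 ± 2.16 FPKM in antagomir libraries and 27.3 ± 0.999 in controls. Ddit4, another such inhibitor that hypoxia also induces, averaged 84.04 ± 14.8 and 83.8 ± 5.06 FPKM. Of 15 genes listed here as p53 targets in cell death, 9 were tested, with 6 higher and 3 lower (median 0.062) and 0 at an unadjusted p under 0.05. Leaving out antagomir replicate 3 gave a median of 0.020, leaving out control replicate 3 gave 0.021, and leaving out control replicate 1 gave 0.088. Pmaip1, which encodes the BH3-only protein NOXA, and the death receptor genes Fas and Tnfrsf10b had means of 0.446, 0.386 and 0.401 FPKM over all libraries and were below the filter. The most abundant tested genes of this list were Zfp385a, which encodes a p53-induced zinc finger protein, at 238 ± 12.2 and 221 ± 10.2 FPKM, and Trp53inp2, an autophagy gene related to Trp53inp1, at 49.9 ± 2.52 and 50.3 ± 0.954 FPKM (antagomir, then control, SD, n = 3 each).

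Downstream of p53, 13 of 15 genes of the Bcl-2 family were tested, with 6 higher and 7 lower (median -0.016, and -0.043 to 0.016 with 1 library left out) and 0 at an unadjusted p under 0.05. Its most abundant members were the mitophagy receptor genes Bnip3, at 38.8 ± 1.33 FPKM in antagomir libraries and 49.2 ± 9.99 in controls, and Bnip3l, at 40.4 ± 2.89 and 43.7 ± 5.51 FPKM. Both are also hypoxia-induced. The groups overlapped for Bnip3, with a log2 fold change of -0.32 (SE 0.14, unadjusted p = 0.0536 and adjusted p = 0.801 by limma). The Bnip3 change was -0.17 without control replicate 1 and -0.46 without control replicate 2. By voom its unadjusted p was 0.0225. The family then had 1 gene higher and 2 lower at an unadjusted p under 0.05, beside 1083 of all 17453 genes. Among caspases, apoptosome genes and inhibitors of apoptosis, 17 of 19 were tested, with 11 higher and 6 lower (median 0.0073, and -0.010 to 0.033 with 1 library left out), 1 in each direction at an unadjusted p under 0.05. Over all genes tested, 3.22% were higher and 2.98% lower at that p. Birc6, which encodes a large inhibitor of apoptosis with ubiquitin ligase activity, was at 9.38, 8.55 and 8.79 FPKM, against 10.4, 9.75 and 10.5 FPKM in the controls. Birc6 was lower in each antagomir library than in any control, as were 5.87% of all genes tested. Its log2 fold change was -0.18 (SE 0.063, unadjusted p = 0.0241 and adjusted p = 0.801 by limma). The caspase inhibitor gene Xiap, at 38.7 ± 1.80 and 38.5 ± 0.414 FPKM, and the DNA repair gene Parp1, at 15.9 ± 0.811 and 15.7 ± 0.474 FPKM, were the most abundant genes of this list. Of 10 death receptor signalling genes, 6 were tested, with 1 higher and 5 lower (median -0.024, and -0.11 to -0.0060 with 1 library left out) and 0 at an unadjusted p under 0.05. Cflar, which blocks caspase-8, averaged 4.87 ± 0.399 FPKM in antagomir libraries and 5.27 ± 0.230 in controls, and the receptor gene Tnfrsf1a averaged 4.80 ± 2.34 and 4.37 ± 1.03 FPKM.

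The makeup of the tissue differed between libraries beside these values. Markers of retinal cells were present in every library, with 6 of 6 rod markers above the filter and summing to 8234 to 8277 FPKM in antagomir libraries and 8176 to 9452 FPKM in controls. Lens markers (9 of 9 above the filter) summed to 265, 4.61 and 1.90 FPKM in the antagomir libraries and to 2.33, 666 and 228 FPKM in the controls. The 3 libraries with the lowest lens sums were antagomir replicates 2 and 3 and control replicate 1. Between these the log2 fold changes of Bbc3, Btg2, Trp53 and Trp53inp1 were 0.26, 0.23, 0.11 and -0.12, while that of Cdkn1a was -0.35 and that of Gadd45a 0.0042. With 1 control library left, the spread among controls is unknown, so these values cannot show whether the differences hold without lens tissue. A fit of all 6 libraries with a lens marker term was also made, chosen after seeing the data. It gave 0.25 for Bbc3 (unadjusted p = 0.0193 by limma) and 0.15 for Btg2 (unadjusted p = 0.052 by limma). Trp53 was at 0.11, Trp53inp1 at -0.11, Cdkn1a at -0.053 and Gadd45a at 0.13 in that fit. Red blood cell markers (5 of 5) summed to 21.4 to 61.2 FPKM in antagomir libraries, below the 66.4 to 220.1 FPKM of the controls. Singly, only Hbb-bs stood apart (12.6 to 33.6 against 45.2 to 134 FPKM), and Hba-a1, Hba-a2, Hbb-bt and Alas2 overlapped. Pericyte markers (4 of 5 above the filter) summed to 19.1 to 25.5 FPKM in antagomir libraries and 26.3 to 38.7 in controls, also without overlap. Here only Rgs5 stood apart (14.3 to 19.95 against 22.2 to 31.4 FPKM), and Pdgfrb, Kcnj8, Abcc9 and Cspg4 overlapped. Both sums were thus lower in the antagomir group, though only Hbb-bs and Rgs5 stood apart singly. The marker sums of every other cell type followed overlapped between the groups. Microglia and macrophage markers (7 of 8) summed to 33.9, 71.4 and 49.6 FPKM in antagomir libraries and 38.3, 29.4 and 37.0 in controls. No marker of these lists was at 0 in all libraries, and their part in the differences above was not tested.

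Across the 6 libraries the profile of Cdkn1a was most like those of Tgds, Zfpm1 and Elf2, with Pearson's r of 0.992, 0.989 and 0.988 on the log2(FPKM + 1) scale, out of 8802 genes with a mean of at least 5 FPKM. Among the other members the r with Cdkn1a was 0.56 for Gadd45a and 0.24 for Mdm2, and ran from -0.060 for Trp53 down to -0.36 for Ccng1 for the rest. With 6 points and this many genes such values describe the libraries and carry no test.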

How the data were processed

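RNA was extracted with TRNzol and made into libraries with a SMARTER mRNA-Seq kit, per the labels' protocols. The authors deposited FPKM with gene length, position and biotype, per the file headers. The submitters' processing notes name GRCm38 and mm10, and give no aligner, counter or strand setting. Multiplied by gene length, 100% of values were whole multiples of 1 read (tolerance 0.01 reads), and the reads rebuilt in this way summed to 13727596 to 16502352 reads per library. No pair of replicates of a group agreed within counting noise (lowest chi-square over its degrees of freedom 6.38). The most alike pair of all lay across the groups, antagomir replicate 1 and control replicate 3, at 4.79.

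Log2(FPKM + 1) was fitted with limma 3.58.1 (R 4.3.3), whose empirical Bayes step followed the trend of variance on mean, without covariates, two-sided, with Benjamini-Hochberg adjustment over all 17453 genes with a mean of at least 0.5 FPKM and a threshold of 0.05. Fold changes on this scale understate those of low genes. The fit was tested on simulated data. Genes outside the 9 were named where their unadjusted p was under 0.05 or where they were the 2 most abundant of a list, and the immediate early genes were given as a list. A gene of these lists that the rule picked is not reported here. Counting CV is 100 over the square root of the mean read count, and covers counting error only. The coordinates of all 9 genes equal those in GENCODE M21. The 9 genes and the lists were chosen with earlier results of these data known. Alternatives were other pseudocounts, filters, scalings, variance models and weights, a replicate block, and leaving out each library.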

Additional observations from a re-analysis of the deposited data

How the results depend on the processing

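No gene of the 9 reached an adjusted p of 0.05 under any of the 17 alternatives, whose adjusted p ran from 0.618 (Btg2) upward. Bbc3 kept an unadjusted p under 0.05 in the 17 fits with more than 1 library in each group, and Btg2 in 13 of these. The fit on the 3 libraries with the lowest lens score, which keeps 1 control library, is left out of this count. Over all genes, where 0 passed, voom on rebuilt reads called 1 (Fxyd6), eBayes without a trend 5 (Gm22894, Gm24646, Gm44112, Mir3569, Mir6931), array weights 2 (Fxyd6, Mir6931) and an adjusted p of 0.1 3 (Fxyd6, Mir6931, Gm24646). Leaving out 1 library gave 0 to 2 calls, 2 without antagomir replicate 1 (Lyz2, Mir7655) and 1 without control replicate 2 (Fxyd6). These genes were chosen after their values were seen. The replicate numbers did not pair the libraries (correlation of deviations -0.19, -0.10 and -0.14 for equal numbers), and the fit with a replicate block called 0 genes.

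Of 543 gene values under alternatives, 38 turned sign, none of them past the threshold, and the cause was not tested. The log2 fold change of Cdkn1a was 0.00039 as TPM, 0.011 with quantile normalization and 0.0013 by voom, and ran from -0.12 to 0.13 with 1 library left out. With quantile normalization Rpl5 was at -0.0022 and Xiap at -0.018. By voom Ddit4 was at 0.0029 and Trp53inp2 at 0.00059, and with array weights Ddit4 was at 0.034. With a lens term in the fit, chosen after seeing the data, Rpl5 was at -0.033, Ddit4 at 0.014, Parp1 at -0.0021, Xiap at -0.0074 and Tnfrsf1a at -0.092. In the 3 libraries with the lowest lens score, chosen likewise, Ccng1 was at 0.022, Rpl11 at -0.029, Rpl5 at -0.12, Ddit4 at 0.12 and Tnfrsf1a at -0.10. With 1 library left out, values ran from -0.062 to 0.014 for Ccng1, -0.035 to 0.11 for Rpl5, -0.091 to 0.011 for Sesn1, -0.14 to 0.0998 for Ddit4, -0.051 to 0.014 for Trp53inp2, -0.019 to 0.050 for Parp1, -0.019 to 0.045 for Xiap and -0.25 to 0.23 for Tnfrsf1a. List medians moved as well. That of the immediate early genes was 0.25 with a lens term, that of p53 targets in cell death 0.025 with array weights, that of the Bcl-2 family 0.019 without a filter or with a minimum of 2 FPKM, that of caspases and inhibitors of apoptosis -0.0021 with a lens term and 0.019 by voom, and that of the 9 genes 0.080 in the 3 libraries with the lowest lens score. Bbc3 and Cdkn1a had the fewest reads of the 9 genes, at 127 to 287 per library, though Cdkn1a varied by more than counting error gives.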
